A study of Mus musculus with 6 samples.

Results

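The genes described here are the nuclear-encoded subunits of the oxidative phosphorylation machinery, taken by symbol as all genes named Nduf, Sdh, Uqcr, Cox4 to Cox8 or Atp5 in a fixed pattern. The pattern met 83 of the 20325 genes in the files: 38 of complex I, 4 of complex II, 8 of complex III, 16 of complex IV and 17 of complex V. It also took Atp5s and Atp5sl, which are not subunits of the enzyme, and Ndufa4 and Ndufa4l2, which carry complex I names although Ndufa4 is now assigned to complex IV. Cox4i1, a core nuclear subunit of complex IV, did not meet the pattern and is given with the other genes of the pathway. RNA-seq was made from neural stem cells of mixed 129/Black 6 mice at postnatal day 4, expanded in culture and frozen before use. The mice behind every library had 2 copies of Stemcca, a doxycycline-inducible cassette of Oct4, Sox2, c-Myc and Klf4 placed at ColA1, and 1 copy of the activator rtta placed at Rosa26, and all cells received doxycycline until day 7. Cells were fixed, permeabilised, stained and sorted by Nanog and E-cadherin protein. The comparison is of Nanog+E-cadherin+ cells (n = 3) with Nanog+E-cadherin- cells (n = 3), that is, of Nanog-expressing cells with and without the epithelial adhesion protein. No uninduced cells are among the groups. Nothing in the labels ties a replicate to its own culture or animal, so the spread that enters each p-value is that between these 6 samples and may be technical.

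Oxidative phosphorylation takes place in the inner mitochondrial membrane. Complex I (NADH dehydrogenase) and complex II (succinate dehydrogenase, also an enzyme of the citric acid cycle) pass electrons to ubiquinone, complex III (the cytochrome bc1 complex) passes them on to cytochrome c, and complex IV (cytochrome c oxidase) hands them to oxygen. The proton gradient built on the way drives complex V, the ATP synthase. Some subunits of complexes I, III, IV and V are encoded in mitochondrial DNA, and their mRNAs were not analysed here. Reprogramming to pluripotency is known for a shift from oxidative metabolism toward glycolysis, and several complex IV and complex V subunits exist as isoforms that differ between tissues.

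The libraries held 8851110 to 39630916 expected counts, of which 92811 to 705251 fell on the 83 genes. Genes above 0 numbered 13833 to 16407, fewest in Nanog+E-cadherin- replicate 3. Reads assigned to olfactory receptor genes, which are not known for expression in neural stem cells, made 0.0878% and 0.0585% of counts in Nanog+E-cadherin- replicates 2 and 3 and at most 0.00929% in the other 4 libraries. Cdh1, the gene for E-cadherin, followed the sort at 30.5, 68.6 and 61.2 TPM against 5.20, 9.68 and 7.84 TPM (TPM, the authors' length-scaled unit, replicates 1 to 3 of each population). Nanog stood at 115, 211 and 148 TPM against 142, 172 and 134 TPM and overlapped between the populations. The neural stem cell markers were above 0 in every library, summing to 1368 to 4469 TPM in Nanog+E-cadherin+ cells and 1823 to 4864 TPM in Nanog+E-cadherin- cells over 9 genes. In these bulk samples, fewer cells of a type and less RNA per cell cannot be told apart.

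Subunit mRNAs were abundant in both populations. The median of the 83 genes, averaged over the 6 libraries, was 277 TPM, 72 of them exceeded 100 TPM, and 68 lay above the 95th percentile of all genes in the files. By complex the medians were 227 TPM for complex I, 196 for complex II, 340.3 for complex III, 369 for complex IV and 522 for complex V. The 6 genes above 1000 TPM were Atp5b and Atp5a1, which form the catalytic head of the ATP synthase, Atp5g2 and Atp5g3, which encode its identical membrane c subunit, and Cox8a and Cox6a1 of complex IV. Atp5b was the highest at 1864 TPM, and its values of 1797, 2135 and 1771 TPM in Nanog+E-cadherin+ cells overlapped the 1829, 1949 and 1704 TPM in Nanog+E-cadherin- cells.

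The low end held tissue isoforms. Cox6a2, Cox7b2, Cox8b and Cox8c, whose products replace their widely used relatives in muscle, testis or other tissues, did not pass the filter on low counts and were not tested. The counts of Cox6a2 were 1, 0 and 0 over replicates 1 to 3 of Nanog+E-cadherin+ cells and 11, 33 and 0 over those of Nanog+E-cadherin- cells. Cox8b had 2, 2 and 4 counts against 10, 6 and 0, Cox8c 1, 0 and 0 against 2, 0 and 0, and Cox7b2 2, 0 and 0 against 0 in all 3. The other 79 genes were tested.

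Promoters are shown for 4 genes that the values below turn on: the widely used Cox6b1 beside its testis-enriched isoform Cox6b2, which was 1 of 3 short genes that went against the pattern of the others, and the short Cox6a1 beside the long Sdha, which lay on opposite sides of that pattern. Each sequence is the 250 bases before the RefSeq transcription start on the mouse GRCm38.p6 assembly, printed 5′ to 3′ on the gene's strand. Capitals mark matches on either strand to 4 motifs: the NRF1 motif (GCGC, any base, TGCGC), the ETS core bound by GABP (CCGGAAG), the YY1 motif (AAGATGG followed directly by CGG) and CCAAT. No YY1 match falls in these 4 windows.
Cox6b1, chr7:30626115-30626364, minus strand: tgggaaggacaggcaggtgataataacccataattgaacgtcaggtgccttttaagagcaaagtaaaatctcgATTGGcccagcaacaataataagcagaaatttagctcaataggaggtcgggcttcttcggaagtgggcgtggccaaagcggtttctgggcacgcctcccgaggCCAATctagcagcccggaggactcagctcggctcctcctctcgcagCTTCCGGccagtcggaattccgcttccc
Cox6b2, chr7:4753095-4753344, minus strand: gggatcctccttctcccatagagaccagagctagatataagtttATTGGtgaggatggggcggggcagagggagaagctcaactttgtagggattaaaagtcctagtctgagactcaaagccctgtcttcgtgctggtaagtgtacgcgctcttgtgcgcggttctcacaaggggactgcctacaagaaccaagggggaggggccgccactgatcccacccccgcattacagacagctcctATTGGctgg
Cox6a1, chr5:115348959-115349208, minus strand: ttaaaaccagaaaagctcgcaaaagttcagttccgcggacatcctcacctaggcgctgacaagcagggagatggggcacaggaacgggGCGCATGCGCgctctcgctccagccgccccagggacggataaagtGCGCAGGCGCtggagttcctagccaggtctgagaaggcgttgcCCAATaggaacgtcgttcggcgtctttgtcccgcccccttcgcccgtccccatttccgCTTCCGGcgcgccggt
Sdha, chr13:74350241-74350490, minus strand: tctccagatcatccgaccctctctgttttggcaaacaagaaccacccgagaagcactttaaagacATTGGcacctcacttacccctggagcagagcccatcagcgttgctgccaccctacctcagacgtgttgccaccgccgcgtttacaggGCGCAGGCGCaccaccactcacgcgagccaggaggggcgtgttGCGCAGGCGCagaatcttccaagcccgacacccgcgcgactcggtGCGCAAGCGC

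The Sdha window held 3 NRF1 matches and that of Cox6a1 2, beginning 162 and 117 bases before the start. Cox6b1 had 1 ETS match, 28 bases before its start, and Cox6b2 had CCAAT matches only, in inverted form. RefSeq promoters were matched for 67 of the 83 genes. Over windows of 300 bases (250 before to 50 after the start), the NRF1 motif lay in 16 of the 67 (23.9%), against 4.8% of the 27025 promoters in the table and 10.1% of the 9549 promoters of tested genes. The ETS core lay in 22.4%, against 9.1% and 17.0%. CCAAT lay in 43.3%, against 37.9% and 39.0%. The YY1 motif lay in 4 (6.0%), all of complex I, against 0.9% and 2.0%. None of the 4 motifs contains another, and a site such as the first of Cox6a1 (GCGCATGCGC) reads as an NRF1 match on both strands. A match is a description of the letters, and binding was not measured.

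No subunit gene passed the test between the sorted populations across all genes. With population as the only term, the quasi-likelihood test of edgeR, adjusted by Benjamini-Hochberg over all genes, called 0 of the 79 genes at an adjusted p under 0.05, and it called 0% of the 13460 genes tested. At an unadjusted p under 0.05, 0 of the 79 were higher and 0 lower in Nanog+E-cadherin+ cells, against 1.08% and 1.58% of all genes, and the smallest p was 0.148, for Ndufa3. The fitted change was above 0 for 62 (78.5%) and below 0 for 17, where it was above 0 for 48.5% of all genes and 71.5% of the genes with transcripts of up to 1000 bases. The 79 genes had a median log2 fold change (Nanog+E-cadherin+ over Nanog+E-cadherin-) of 0.17, with a median over all genes of -0.01 and over the 913 tested genes of up to 1000 bases of 0.15. The median standard error of a subunit gene in this fit was 0.45 on the log2 scale, so a fitted change of the median size lies well within its error. By complex the medians were 0.15, 0.22, 0.17, 0.18 and 0.18 for complexes I to V. Each of them changed sign among the other settings, which include fits that leave out libraries. They ranged from -0.48 to 0.64 for complex I, -0.32 to 0.71 for II, -0.40 to 0.71 for III, -0.44 to 0.76 for IV and -0.38 to 0.64 for V. The median was below 0 in 5 of 25 settings for complex I, 3 of 24 for II, 6 of 24 for III, 5 of 24 for IV and 4 of 25 for V. With the length offsets described below, that of complex II stayed above 0 at 0.03, and those of complexes I, III, IV and V were below 0.

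**Figure D1:**
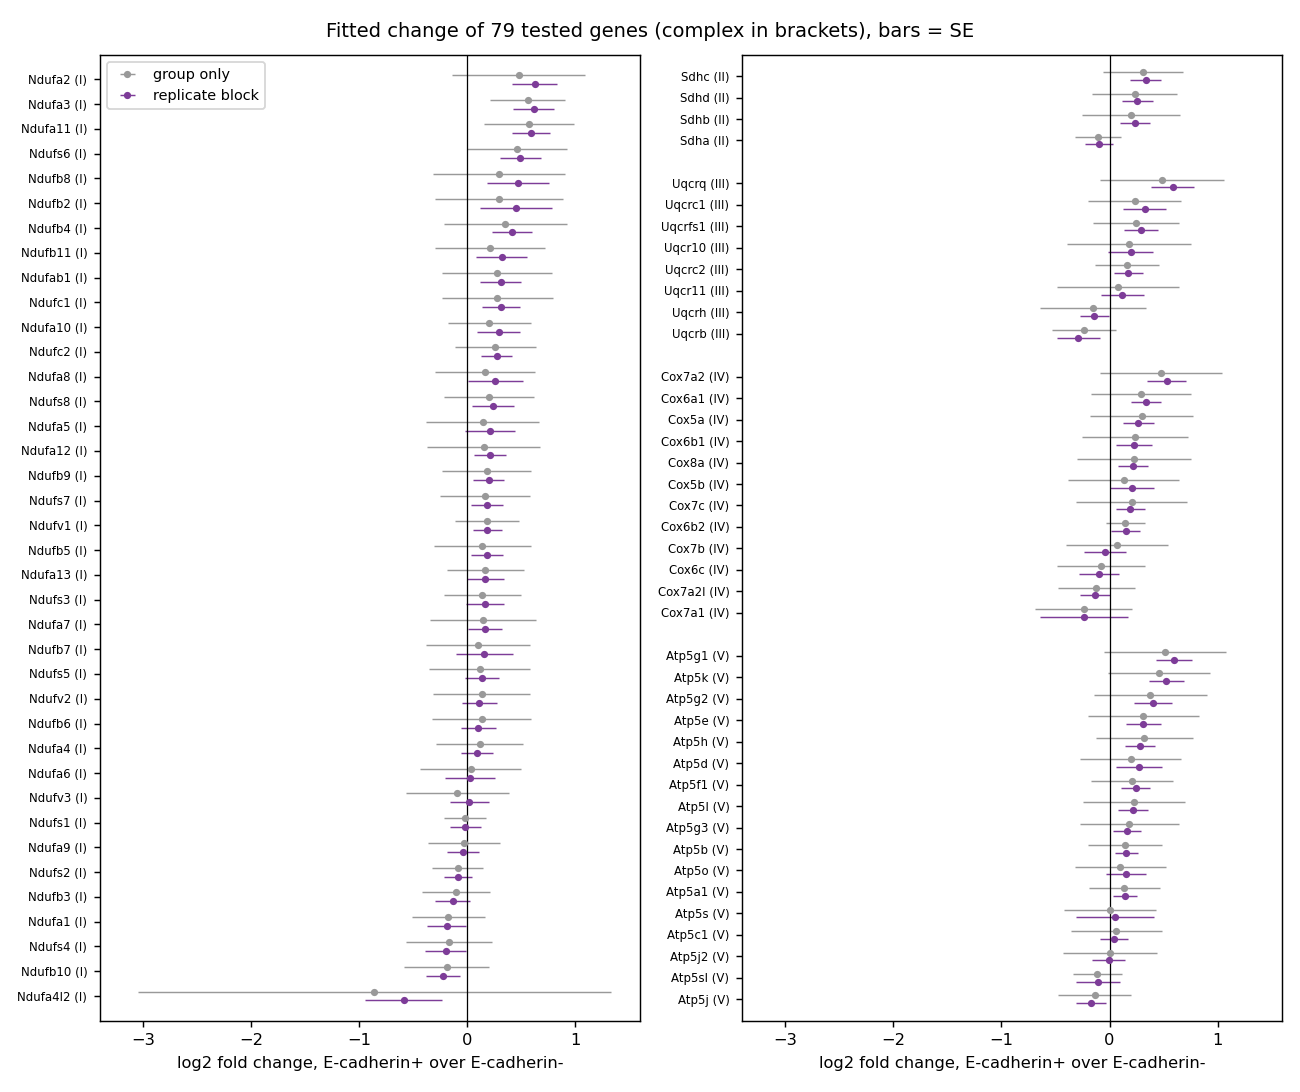
Fitted log2 fold change of each of the 79 tested genes, Nanog+E-cadherin+ over Nanog+E-cadherin-, grouped by complex, with population as the only term (grey) and with the replicate number as a block (purple); bars are standard errors over 6 libraries. Most points lie slightly right of 0, none passed the test in either fit, and the bars are shorter with the block.

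Same-numbered libraries deviated together, so the replicate number was also fitted as a block, which compares the populations within pairs. The block cut the median standard error to 0.16, and 0 of the 79 genes passed, against 0.305% of all genes (41 of 13460, 29 higher and 12 lower). The smallest adjusted p of the 79 in this edgeR fit was 0.263, for Atp5g1. At an unadjusted p under 0.05, 10 genes were higher and 0 lower, which is 12.7% of the 79 where 5.51% of all genes were higher and 5.19% lower, and where 10.4% of the tested genes of up to 1000 bases were higher. The 10 were Ndufa2, Ndufa3, Ndufa11 and Ndufs6 of complex I, Sdhc, Uqcrq, Cox6a1 and Cox7a2, and Atp5g1 and Atp5k of the ATP synthase. Within pairs of equal number, 34 of the 79 genes (43%) had the higher CPM (counts relative to the TMM-scaled library total) in Nanog+E-cadherin+ cells in all 3 pairs and 6 the lower, against 18.9% and 17.3% of all genes and 31.0% and 4.71% of those of up to 1000 bases. The 6 were Ndufa1, Ndufb10, Sdha, Uqcrh, Cox7a1 and Cox7a2l. The median log2 ratio of the 79 was 0.11 in pair 1, 0.003 in pair 2 and 0.36 in pair 3. Over the tested genes of up to 1000 bases these medians were 0.16, -0.04 and 0.40. The median ratio was thus largest in pair 3, whose Nanog+E-cadherin- library had the lowest total count and the fewest genes above 0. The part of depth in this was not tested. Without both libraries of number 3, the blocked median of the 79 was 0.08.

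Few of these genes had all 3 libraries of one population apart from all 3 of the other. On the CPM scale 1 of the 79 was higher without overlap (Cox6b2) and 0 were lower, against 3.74% and 3.25% of all genes. On the deposited TPM scale, 1 was higher (Ndufa3) and 2 were lower (Ndufa1 and Ndufb3), against 3.19% and 1.51%. Ndufb3 is named because the count is small, after its values were seen.

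Complex I held the smallest p with population only, without passing the test. Ndufa3, an accessory subunit of the membrane arm, stood at 339.7, 354 and 409 TPM in Nanog+E-cadherin+ cells and 296, 201 and 284 TPM in Nanog+E-cadherin- cells. All 3 values were above all 3 of the other population, the fitted log2 fold change was 0.56 ± 0.35 (SE), and with the block it was 0.61 ± 0.19 (SE) at an edgeR adjusted p of 0.29. Ndufa1, another small membrane subunit and one needed for assembly of the complex, went the other way, at 194, 157 and 206 TPM against 231, 211 and 239 TPM. Its log2 fold change was -0.18 ± 0.33 (SE), within its error. Ndufa1 overlaps Rnf113a1 in the RefSeq annotation, so reads of the pair may be shared. The most abundant of the complex I names, Ndufa4 (781, 564 and 597 against 709.5, 503 and 759.6 TPM) and Ndufa7 (741, 450.4 and 574 against 749.9, 479 and 471 TPM), overlapped widely, with fitted changes of 0.11 ± 0.40 and 0.15 ± 0.49 (SE).

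Complex II is encoded by 4 nuclear genes, and all of them passed the filter. Sdha, the flavoprotein that oxidises succinate, stood at 118, 219 and 186 TPM in Nanog+E-cadherin+ cells and at 135, 249.8 and 217 TPM in Nanog+E-cadherin- cells. In TPM it was lower by a similar step in each pair, and its low values were both of replicate 1. On the CPM scale its log2 ratios were uneven, at -0.09, -0.20 and -0.007 in pairs 1 to 3. The iron-sulfur subunit Sdhb was at 369.6, 302 and 255 against 364, 259 and 229 TPM, highest in replicate 1. The membrane anchors Sdhc (229, 221 and 183 against 208, 161 and 171 TPM) and Sdhd (231, 197 and 193 against 223, 171 and 167 TPM) were also slightly higher in Nanog+E-cadherin+ cells in each pair and overlapped between the populations. With the block, the log2 fold changes were -0.10 ± 0.13 for Sdha, 0.23 ± 0.14 for Sdhb, 0.33 ± 0.14 for Sdhc and 0.26 ± 0.14 for Sdhd (SE), with edgeR adjusted p of 0.443 or more.

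Among the 8 complex III genes, Uqcrq, which encodes a small subunit beside cytochrome b, had the largest fitted change. It stood at 635, 375 and 468 TPM against 552, 306 and 239 TPM, with a blocked log2 fold change of 0.58 ± 0.20 (SE) and an edgeR adjusted p of 0.351, and it overlaps Gdf9 in the annotation. Uqcrb, a ubiquinone-binding subunit, was at 313, 288 and 251 TPM against 298, 362 and 478 TPM, close in pair 1 and far apart in pair 3. The hinge protein Uqcrh (597, 359 and 462 against 728, 395 and 568 TPM) was lower in Nanog+E-cadherin+ cells in each pair, and the most abundant member Uqcr11 (807, 415 and 632 against 898, 506 and 450.2 TPM) changed sides between pairs. Blocked fits gave -0.29 ± 0.20 for Uqcrb, -0.14 ± 0.14 for Uqcrh and 0.12 ± 0.20 for Uqcr11 (SE).

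Of the complex IV genes, 12 of 16 were tested. The most abundant, Cox8a, stood at 1707, 945 and 1161 TPM against 1569.9, 939.8 and 998 TPM, and Cox6a1 at 1275, 911 and 1086 against 1229.7, 711 and 887 TPM. Both were highest in the libraries of replicate 1, with the 2 populations side by side. Cox7a2 had values of 396, 233 and 248 TPM against 321, 199.97 and 145 TPM, higher in each pair, and a blocked log2 fold change of 0.53 ± 0.18 (SE) with an edgeR adjusted p of 0.35. Cox7a2 overlaps Tmem30a in the annotation. Cox7b, at 303, 179 and 164 against 244, 179 and 277 TPM, overlapped. Cox7a2l, a relative that takes part in joining complexes III and IV into supercomplexes, was at 303, 264 and 249.6 against 345, 315 and 299.9 TPM, a blocked log2 fold change of -0.13 ± 0.14 (SE).

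In the ATP synthase, the c subunit gene Atp5g1 had the smallest p with the block. It stood at 569, 315 and 496 TPM against 496, 221 and 288 TPM, and its log2 fold change was 0.51 ± 0.56 (SE) with population only and 0.60 ± 0.17 (SE) with the block. The 2 lowest values were Nanog+E-cadherin- replicates 2 and 3. DESeq2 with the block gave it an adjusted p of 0.034 and a log2 fold change of 0.61, so its call depends on the tool. That fit called 1 of the 79 subunit genes and 304 of all 13460 genes tested. Atp5k, the e subunit of the membrane part and the shortest transcript of the set at 292 bases, was at 898, 705 and 673 against 785, 421 and 533 TPM, with a blocked change of 0.53 ± 0.16 (SE) and an edgeR adjusted p of 0.286. With the length offsets described below, its blocked change was 0.12 ± 0.19 (SE). The other c subunit genes had smaller blocked changes, 0.40 ± 0.18 for Atp5g2 and 0.16 ± 0.13 for Atp5g3 (SE). Atp5g2 was at 1621, 954 and 1220.1 against 1393, 953 and 765 TPM, and Atp5g3 at 1403, 969 and 956 against 1279, 877 and 1025 TPM. Atp5sl, taken by the symbol pattern, was at 18.7, 27.7 and 24.6 against 19.1, 27.5 and 37.2 TPM.

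The level of a subunit mRNA varied mostly with the replicate number of the library. Over the 79 genes, the replicate number held a median of 89.2% of the sum of squares of log2 CPM and the population 5.07%, while over all genes tested the medians were 64.8% and 9.2%, and over those of up to 1000 bases 82.3% and 5.05%. The number held the larger part in 78 of the 79 genes (98.7%), compared with 84.4% of all genes. Replicate number has 3 levels and population 2, so a larger part for the number is to some extent built in. Nanog+E-cadherin+ replicate 1 was the highest library for 60 of the 79 and Nanog+E-cadherin- replicate 1 for 15, where they were the highest for 23.9% and 11.4% of all genes. Nanog+E-cadherin- replicate 3 was the lowest for 41, where it was the lowest for 30.6% of all genes.

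The summed TPM showed the same order. The 83 genes held 3.68%, 2.73% and 3.02% of all TPM over replicates 1 to 3 of Nanog+E-cadherin+ cells and 3.603%, 2.66% and 2.66% over those of Nanog+E-cadherin- cells. The difference of means was 0.168 percentage points with an SD of 0.163 over the 3 pair differences, and each pair had the higher share in Nanog+E-cadherin+ cells. Complex V held the largest part, 1.27%, 1.02% and 1.08% against 1.22%, 0.946% and 0.959%, and complex II the smallest, 0.0948%, 0.0938% and 0.0817% against 0.0930%, 0.0840% and 0.0784%. Complex I held 1.11%, 0.81% and 0.917% against 1.13%, 0.806% and 0.786%. The shares of complexes I and III were slightly lower in Nanog+E-cadherin+ cells in pair 1, and higher in pair 3.

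**Figure D2:**
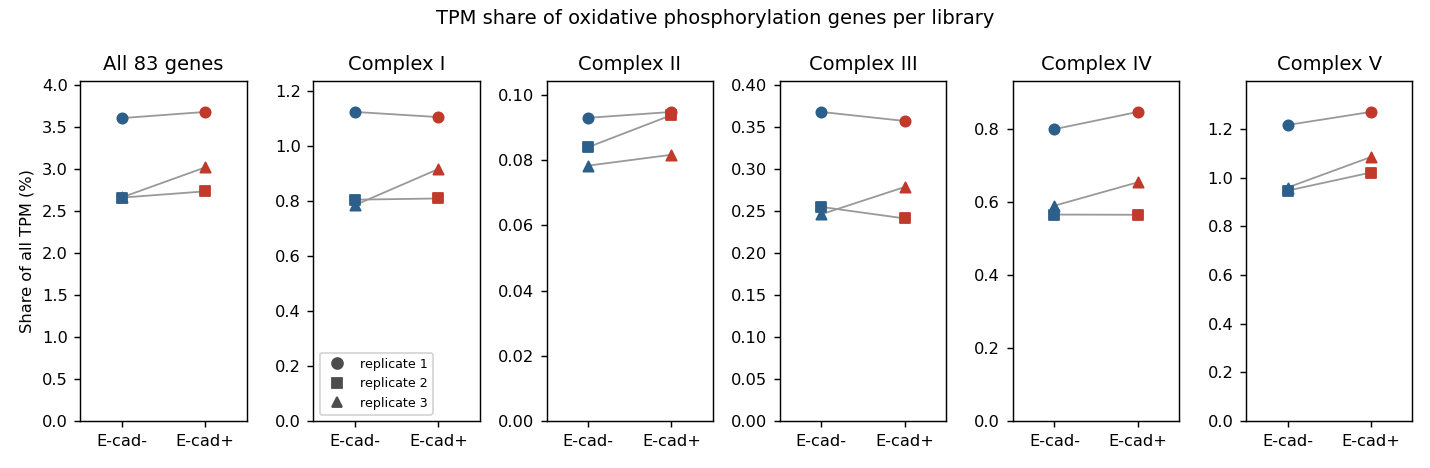
Share of all TPM (%) held by the 83 genes and by each complex in each of the 6 libraries, Nanog+E-cadherin- on the left (blue) and Nanog+E-cadherin+ on the right (red) of each panel; lines join libraries of equal replicate number and each panel has its own axis from 0. Both libraries of replicate 1 lie above the other 4 in all panels except complex II, and in those panels the step between populations within a pair is smaller than that gap.

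Other contents of the libraries moved with this order. Cytosolic ribosomal protein genes held 27.5%, 18.2% and 20.3% of TPM in Nanog+E-cadherin+ cells and 26.8%, 17.2% and 17.6% in Nanog+E-cadherin- cells, and all genes with transcripts of up to 1000 bases held 45.4%, 31.0% and 35.6% against 43.8%, 30.7% and 31.3%. Replicate 1 libraries also had the lowest sums of the 10 mesenchymal markers, 1025 TPM in Nanog+E-cadherin+ and 1227 TPM in Nanog+E-cadherin- cells, where the other 4 libraries had 4120 to 5383 TPM, and the lowest sums of the neural stem cell markers. Vim is on both of these lists and was the largest part of both sums in each library, at 856, 2385 and 3614 against 1038, 2902 and 3727 TPM. Of the 9 neural stem cell markers, 1 had a higher mean log2 TPM in the replicate 1 libraries, and 0 of the 10 mesenchymal markers had. The 1 was Hes5, at 163, 28.2 and 4.56 against 328, 40.0 and 14.7 TPM. The 9 neuron markers found summed to 630, 284 and 170 TPM against 900.1, 549 and 306 TPM, a sum higher in Nanog+E-cadherin- cells in each pair and highest in replicate 1. In replicate 1 the largest parts were Tubb3 (262 against 518 TPM) and Stmn2 (321 against 290 TPM). Of the 9 markers, 5 had a higher mean log2 TPM in the replicate 1 libraries, while Snap25, Syt1, Gad2 and Mapt were lower there. Epithelial markers, 10 genes including Cdh1, the gene of the sorted protein, summed to 274, 273 and 248 TPM against 174, 265 and 166 TPM. On the CPM scale, 8 of the 10 were higher in Nanog+E-cadherin+ cells in all 3 pairs and 1 was lower. The lower one, Cldn3, was the most abundant of them, at 95.5, 93.35 and 56.5 against 108, 163 and 87.7 TPM. Muscle, germ cell and brown fat markers summed to at most 15.2 TPM each in any library, and 4 to 7 of the 10 germ cell markers were at 0. The part of library composition, depth and cell types in the values of the subunit genes was not tested.

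Transcript length ran alongside the replicate pattern. Tested subunit transcripts were short, with a median of 681 bases and a range of 292 to 2859. Of the 79 genes 67 (84.8%) had a higher mean log2 TPM in the 2 libraries of replicate 1 than in the other 4, against 20% of all genes and 72.5% of those of up to 1000 bases. The median log2 difference was 0.49 for the subunit genes of up to 1000 bases, 0.19 for those over 1000 and -0.05 for those over 1500. Across the 79 genes, length and this difference had Pearson's r of -0.22 and Spearman's rho of -0.47, and without Ndufa4l2 they were -0.54 and -0.49 over 78 genes. Over all genes tested r was -0.42 and rho -0.48. These are descriptions across genes that share the same 6 libraries. Of the 5 genes over 2000 bases, Sdha (-0.78), Ndufs1 (-0.48), Atp5sl (-0.60) and Atp5a1 (-0.08) were lower in the replicate 1 libraries on the log2 scale and Ndufa11 (0.25) was higher, and of the 11 over 1500 bases 3 were higher. Among the 55 tested genes of up to 1000 bases 52 were higher, Cox8a (0.70) and Cox6a1 (0.49) among them, and the other 3 were Cox6b2 (-0.53), Cox7a1 (-0.34) and Uqcrb (-0.13).

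**Figure D3:**
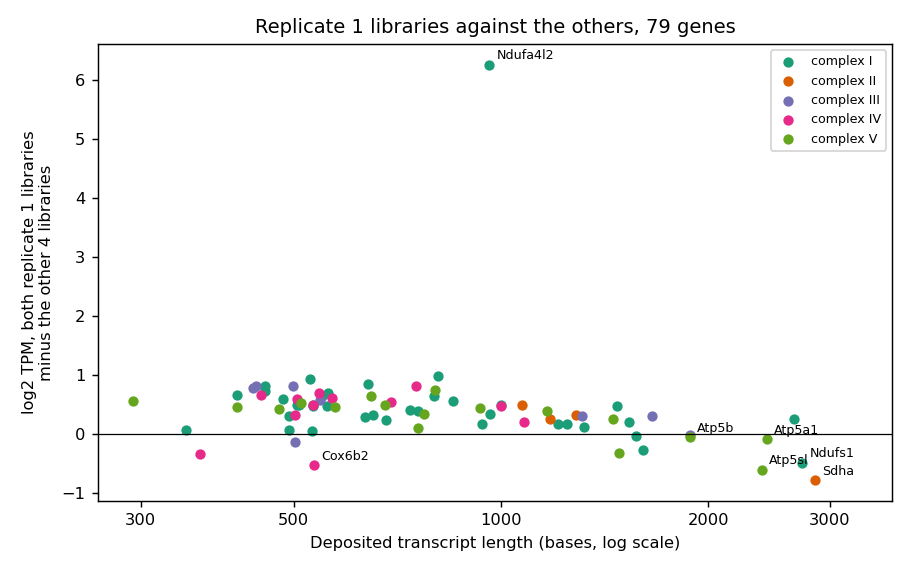
Difference in mean log2 TPM between the 2 libraries of replicate 1 and the other 4, against the deposited transcript length in bases (log axis), for the 79 tested genes coloured by complex. Short transcripts lie mostly above 0 and the longest mostly below, with Ndufa4l2 at 6.26 far above the rest and Cox6b2 at -0.53 below 0 despite its short transcript.

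When each library was offset by a smooth curve of its counts on transcript length, the direction of the median turned. With these length offsets the median log2 fold change of the 79 genes was -0.09 with population only, 26 above 0 and 53 below (5754 of the 13460 genes tested and 309 of the 913 of up to 1000 bases were above 0). It was -0.10 with the block. Without and with the block, the medians over all genes were -0.06 and -0.03, and over genes of up to 1000 bases -0.13 and -0.08. Before the offsets, the medians of these short genes were 0.15 and 0.20. The offsets thus moved short genes past 0 and did not centre them, so the sign after them cannot decide the direction of the subunit genes. With the block and the offsets, 2 of the 79 genes were higher and 9 lower (11.4%) at an unadjusted p under 0.05. The shares were 4.64% and 5.66% over all genes and 2.3% and 8.11% over those of up to 1000 bases. With adjustment 0 passed in edgeR, and the smallest adjusted p was 0.274, for Ndufa11 at a log2 fold change of 0.52 ± 0.15 (SE). In this fit the log2 fold changes of Ndufa3, Uqcrq and Cox7a2 were 0.23, 0.25 and 0.25. Without offsets and with the block, length and log2 fold change had r of -0.17 and rho of -0.15 over the 79 genes. Over all genes tested they were -0.21 and -0.27. With population only and no offsets, the median was 0.18 for the subunit genes of up to 1000 bases. It was 0.14 for those over 1000 bases and -0.02 for the 5 over 2000. A small shift common to the subunit genes has no direction that holds across the fits with and without offsets, and the part of length in it was not tested.

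**Figure D4:**
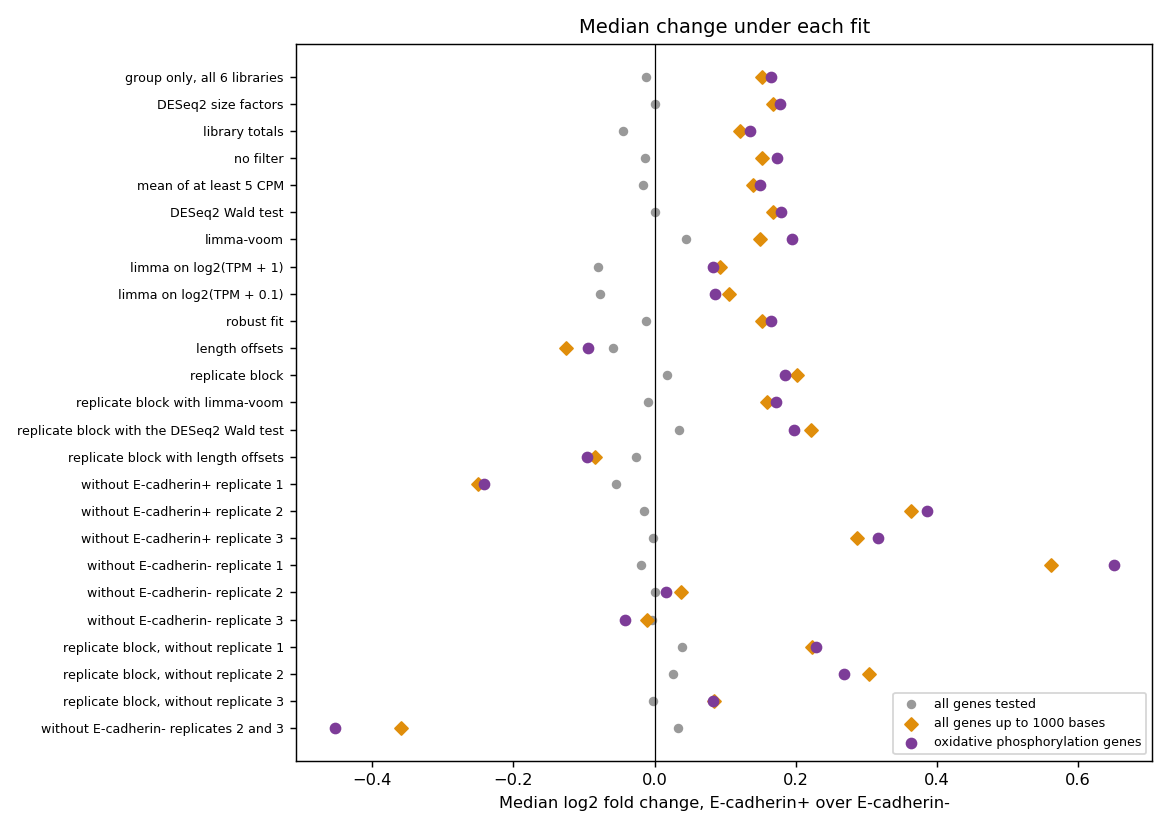
Median log2 fold change, Nanog+E-cadherin+ over Nanog+E-cadherin-, under each fit, for the tested oxidative phosphorylation genes (purple), all genes of up to 1000 bases (orange) and all genes tested (grey). The subunit genes track the short genes in each fit, from -0.45 without Nanog+E-cadherin- replicates 2 and 3 to 0.65 without Nanog+E-cadherin- replicate 1.

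Cox6b2 was 1 of the 3 short genes that were lower in the replicate 1 libraries. Cox6b2, known as the testis isoform of the subunit that joins the partners of the complex IV dimer, was well measured in these cells, at 411, 607 and 582 TPM in Nanog+E-cadherin+ cells and 396, 572 and 568 TPM in Nanog+E-cadherin- cells. It was lowest in replicate 1, where its relative Cox6b1 was highest (1075, 619 and 805 against 973, 685 and 627 TPM). Cox6b2 was the gene in which population held more of the sum of squares (62.7%) than replicate number (26.3%), on the CPM scale, where its values were 153, 139.9 and 146 against 139, 133 and 125 CPM. The difference was small, a log2 fold change of 0.15 ± 0.18 (SE) with an unadjusted p of 0.446 in edgeR's fit across all genes, and the groups overlapped when scaled by library totals or DESeq2 size factors. The share of Cox6b2 in the summed TPM of both Cox6b genes was 27.7%, 49.5% and 42.0% in Nanog+E-cadherin+ cells and 28.9%, 45.5% and 47.5% in Nanog+E-cadherin- cells. It thus changed with replicate number and had no common direction between the populations.

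Ndufa4l2, a relative of Ndufa4 known as a target of hypoxia-inducible factor 1, was higher in the replicate 1 libraries as most others were, but by far more. It stood at 148, 7.16 and 0.74 TPM in Nanog+E-cadherin+ cells and at 289, 10.7 and 0 TPM in Nanog+E-cadherin- cells, from counts of 1910, 41 and 7 against 6809, 54 and 0. Both libraries of replicate 1 were high and both of replicate 3 near 0. With the block its log2 fold change was -0.59 ± 0.36 (SE), and without both libraries of replicate 3 it was -0.78 ± 0.17 (SE) with an edgeR adjusted p of 0.0233, a call that rests on the other pairs alone. The fit without replicate 3 called 1 of the 79 subunit genes and 449 of all 13585 genes tested. The gene overlaps Shmt2 in RefSeq, and Shmt2 stood at 267, 203 and 162 against 337, 158 and 86.4 TPM, a narrower range in the same order of replicates. Strand use in counting is not stated, so reads of the pair may be shared. Of the 80 subunit genes found in the RefSeq table, 14 overlap another protein-coding gene.

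Among the remaining isoform groups, Cox6a and Cox8 used almost wholly their common form. Cox6a1 made at least 98.6% of Cox6a TPM in every library and Cox8a at least 99.6% of Cox8 TPM. Cox7a1, the heart and skeletal muscle isoform, was at 32.6, 33.5 and 40.2 TPM against 35.2, 37.6 and 66.9 TPM. It made 7.60%, 12.6% and 14.0% of the summed TPM of Cox7a1 and Cox7a2 in Nanog+E-cadherin+ cells and 9.89%, 15.8% and 31.6% in Nanog+E-cadherin- cells, lower in the former in each pair and with overlap across pairs. The muscle markers stood at 1.72 to 13.1 TPM in sum over 10 genes. Of the c subunit genes, Atp5g1 made 15.8%, 14.1% and 18.6% against 15.7%, 10.8% and 13.9%, Atp5g2 45.1%, 42.6% and 45.7% against 44.0%, 46.5% and 36.8%, and Atp5g3 39.0%, 43.3% and 35.8% against 40.4%, 42.8% and 49.3%. All 3 genes encode the same mature protein, and Atp5g1 was the least used in each library.

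**Figure D5:**
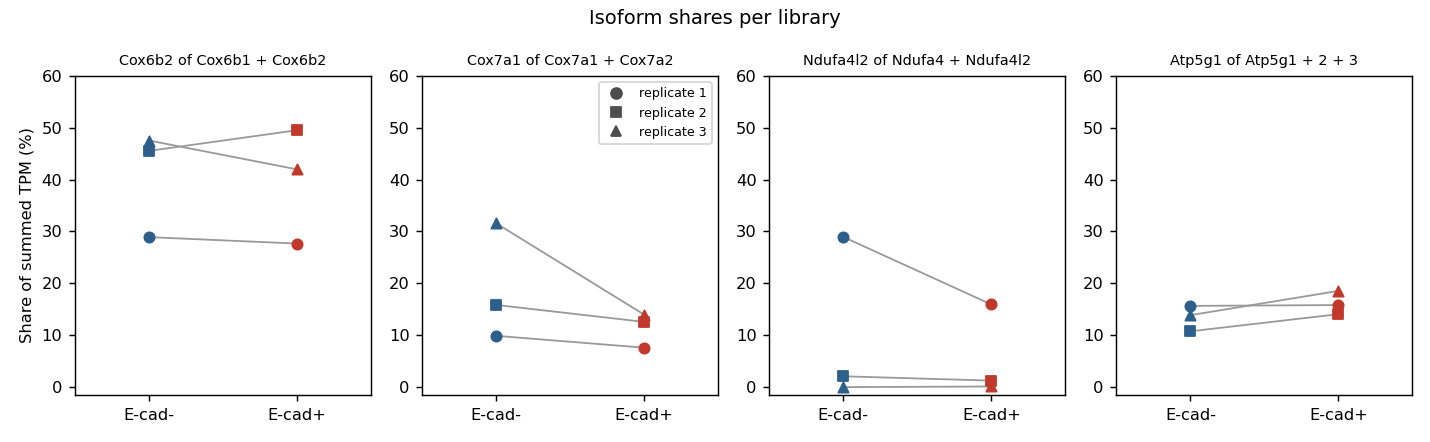
Share (%) of an isoform in the summed TPM of its group in each library, Nanog+E-cadherin- on the left (blue) and Nanog+E-cadherin+ on the right (red); lines join libraries of equal replicate number. The Cox6b2 and Ndufa4l2 shares separate replicate 1 from the others, and the Cox7a1 share is lower in Nanog+E-cadherin+ cells in each pair.

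Other genes of the pathway gave the same result of no call. Of 8 further subunits and partners, 7 were tested and 0 passed in edgeR's test with population only or with the block. Cox4i1, the regulatory subunit where ATP acts on complex IV, stood at 1393, 893 and 966 TPM against 1178, 779 and 699 TPM, with a blocked log2 fold change of 0.40 ± 0.14 (SE) and an edgeR adjusted p of 0.372, and it made at least 99.7% of Cox4 TPM beside Cox4i2. Cyc1, the cytochrome subunit of complex III, was at 473, 389 and 397 against 461, 384 and 261 TPM, and the electron carrier Cycs at 98.9, 72.2 and 80.0 against 87.9, 58.1 and 80.0 TPM. Atpif1, the inhibitor of the ATP synthase working in reverse, was at 1282, 843 and 972 against 1245, 820.3 and 1058 TPM. Usmg5 and 2010107E04Rik, small proteins associated with the ATP synthase, had blocked log2 fold changes of -0.08 ± 0.17 and 0.17 ± 0.17 (SE). Cyct, the germline cytochrome c, lay below the filter with counts of 12, 3 and 8 in Nanog+E-cadherin+ cells and 1, 0 and 0 in Nanog+E-cadherin- cells.

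Genes that build the complexes or feed them also had no call in edgeR. Of 31 assembly factors tested, 24 had a fitted change above 0 and 7 below, with a median log2 fold change of 0.08. Over all genes, 48.5% were above 0. At an unadjusted p under 0.05 with the block, 2 were higher and 1 lower, against 5.51% and 5.19% of all genes. With population only, 0 were higher and 1 lower, against 1.08% and 1.58% of all genes. That gene was Acad9, a complex I assembly factor, at 27.4, 48.7 and 44.8 TPM against 28.4, 154 and 116 TPM, level in pair 1 and lower in Nanog+E-cadherin+ cells in pairs 2 and 3, with a log2 fold change of -1.11 ± 0.43 (SE). With the block its log2 fold change was -0.93 ± 0.29 (SE) and the edgeR adjusted p 0.296. The 2 high values are those of the libraries with the most olfactory receptor reads, and their part in the result was not tested. Cox10, needed to make the heme A of complex IV, was at 23.1, 26.9 and 27.9 against 22.4, 16.8 and 17.4 TPM. Ndufaf1, an assembly factor of complex I, and Cox18, which inserts a complex IV subunit into the membrane, had blocked log2 fold changes of 0.37 ± 0.27 and 0.71 ± 0.38 (SE).

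All 18 genes of the citric acid cycle and its entry enzymes were tested, with a median log2 fold change of 0.04, 14 above 0 and 4 below. Pcx, which makes oxaloacetate from pyruvate, had the smallest p with the block, at 13.2, 114 and 144 TPM against 11.2, 84.2 and 80.8 TPM and a log2 fold change of 0.61 ± 0.17 (SE, edgeR adjusted p = 0.268). Its lowest libraries were those of replicate 1, the reverse of most subunit genes. The dehydrogenase genes Idh2 and Idh3a and the pyruvate dehydrogenase gene Dlat had blocked log2 fold changes of 0.32 ± 0.18, 0.24 ± 0.14 and 0.27 ± 0.15 (SE). Summed TPM of the cycle was 0.288%, 0.379% and 0.348% against 0.310%, 0.365% and 0.348%, also lowest in replicate 1. Of 15 regulators of mitochondrial biogenesis tested, the median was 0.06, with 10 above 0 and 5 below. Ppargc1a, the coactivator that drives mitochondrial biogenesis in muscle and brown fat, was low at 0.34, 0.84 and 1.09 against 0.57, 2.06 and 1.42 TPM. Its relatives Ppargc1b and Pprc1 and the factor Yy1 had blocked log2 fold changes of -0.52 ± 0.32, 0.24 ± 0.15 and 0.25 ± 0.18 (SE). Nrf1, named here for its motif, had a log2 fold change of 0.10 ± 0.21 (SE) with population only.

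Genes of the ribosomes were set beside the subunit genes. The cytosolic ones are abundant and short (median 684 bases and 2712 TPM), and the mitochondrial ones longer and less abundant than the subunit genes (median 1036 bases and 89.0 TPM). The 79 tested cytosolic ribosomal protein genes had a median log2 fold change of 0.18, with 74 above 0, and the 76 mitochondrial ribosomal protein genes a median of 0.16, with 64 above 0. Pair ratios of the cytosolic genes had medians of 0.15, 0.11 and 0.39, each higher than that of the subunit genes. With the length offsets these medians were -0.08 and -0.02. No difference between the oxidative phosphorylation genes and these groups was tested.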

How the data were processed

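RNA-seq of 6 libraries, 3 of each sorted population, was analysed. Per the submitters' processing notes, reads were handled with Bowtie and with RSEM 1.2.4 on build mm9. Settings and strand use were not given in the sources used here. Per the file headers, the authors deposited expected counts, TPM, FPKM and transcript lengths per gene. RSEM divides reads among genes that share sequence, so genes with near-identical copies are uncertain. Expected counts deposited by the authors were rounded and tested in edgeR 4.0.16 (R 4.3.3) with TMM, filterByExpr (at least 10 counts, and 15 in total), quasi-likelihood fits, population as the only term, and Benjamini-Hochberg adjustment over 13460 genes at 0.05. The authors' TPM values give levels and shares. FPKM as deposited by the authors was left unused. The steps were tested on simulated data that held no trend on transcript length. Whether the length offsets remove such a trend was therefore not tested.

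Both populations carry numbers 1 to 3. Deviations from group means across all genes correlated at 0.755, 0.411 and 0.483 between same-numbered libraries and at 0.122 or less between others, so the replicate number was fitted as a block. The pairing comes from the values, not from the labels. The biological coefficient of variation was 0.499 with population only and 0.285 with the block.

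Length offsets were a loess fit (span 0.5) of each library on log2 length. Limma 3.58.1 and DESeq2 1.42.0 were alternatives. Ratios of pairs used a pseudocount of 0.5 CPM, and differences in log2 TPM one of 0.5 TPM. RefSeq promoters carry GRCm38.p6 coordinates, another build than the files, and serve for sequence and gene overlap only.

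Genes named with values are, in each complex, the 2 of highest mean TPM and that of smallest p in each direction, all Sdh genes, the isoform groups, genes that passed or did not overlap, and genes below the filter. Of the other lists they are all further subunits and up to 4 genes of smallest p. The genes and lists were chosen with earlier results of these data known. Of the lists' genes, 9 assembly factors and 13 mitochondrially encoded genes were not analysed here.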

Additional observations from a re-analysis of the deposited data

How the results depend on the processing

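No subunit gene passed with population only under any of the alternatives run. With the replicate block the count stayed 0 in edgeR, limma-voom and the fit with length offsets. It was 1 of 79 with DESeq2 (Atp5g1), beside 304 of all 13460 genes tested. It was also 1 of 79 without both libraries of replicate 3 (Ndufa4l2), beside 449 of all 13585 genes tested. The blocked median log2 fold change was 0.184 beside 0.165 with population only. It was -0.0940 with length offsets and -0.0957 with length offsets and the block. Leaving out single libraries with population only gave -0.242 to 0.650, and leaving out pairs under the block gave 0.0824 to 0.268. The direction of the population-only median thus depended on single libraries, while the blocked median stayed above 0 without any 1 pair. Leaving out 1 library also leaves the other library of its number unmatched, and replicate number held most of the sum of squares. Without Nanog+E-cadherin- replicates 2 and 3, which leaves 1 library assumed to vary like the others, the population-only median was -0.453. Over all genes, 0 were called with population only, 1 without the filter, 1 with length offsets, 21 with DESeq2, 41 with the block, 36 with block and length offsets, 264 with block and limma-voom, 304 with block and DESeq2, and under the block 182 without replicate 1, 140 without replicate 2 and 449 without replicate 3. The count of subunit genes whose libraries do not overlap was 1, and 0 with DESeq2 size factors, library totals or no filter. It was 0 to 25 without single libraries. The 25 of 79 (31.6%) came without Nanog+E-cadherin- replicate 1, where 31.6% of all genes did not overlap, and 16 (20.3%, against 40.9%) without Nanog+E-cadherin- replicates 2 and 3. The difference in TPM share, 0.168 percentage points, ran from -0.0995 to 0.483 without single libraries. Fewer samples are part of these alternatives, and other causes were not tested. Over 27 named genes and 648 values under alternatives, 565 kept the sign, 83 had the opposite sign, none of those called, and 2 passed. DESeq2 with population only gave no adjusted p to 7834 genes, 5 of them subunit genes. The 4 genes of low counts, left out by the filter, were tested in the fit without it, and 0 passed.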
